A study of Mus musculus with 2 samples.

Results

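The nuclear genes of oxidative phosphorylation were taken as all protein-coding genes whose symbol starts with Ndufa, Ndufb, Ndufc, Ndufs, Ndufv, Sdha to Sdhd, Uqcr, Cox4i, Cox5, Cox6, Cox7, Cox8 or Atp5, leaving out the assembly factors Ndufaf, Sdhaf and Uqcc. This rule gave 85 genes of the 43346 in the deposited gene tables, with 38 in complex I, 4 in complex II, 8 in complex III, 18 in complex IV and 17 in complex V, the ATP synthase. Spleens came from C57BL/6J mice, a common inbred laboratory strain, that were adults aged 8 weeks, and poly(A)-selected, rRNA-depleted RNA was sequenced with strand kept, in paired reads of 76 bases. There was a single untreated group of 2 biological replicates, called library 2 and library 1, and no second condition. The labels describe littermates of both sexes, leave the sex of each sample unrecorded and give both libraries the same donor entry. Whether they come from separate animals is thus unstated, and every SD below covers these 2 samples alone, whose spread may be technical.

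Oxidative phosphorylation is the part of respiration that takes place at the inner mitochondrial membrane. Complexes I and II pass electrons from NADH and succinate to ubiquinone, complex III passes them to cytochrome c, and complex IV passes them to oxygen. Complexes I, III and IV pump protons across the membrane, and complex V uses the return flow to make ATP. A few core subunits are encoded by the mitochondrial genome, and nuclear genes encode all others. Several complex IV subunits have sister genes, called isozymes, that are used in heart and skeletal muscle, in lung or in testis.

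Reads assigned to genes came to 51393345 expected counts in library 2 and 49686344 in library 1. An expected count is the number of reads that the authors' estimation gave to a gene, and TPM is a length-corrected level whose values add up to the same total in each library. The spleen factors Tlx1 (33.6 TPM in library 2 and 46.0 in library 1) and Nkx2-5 (17.3 TPM in library 2 and 29.6 in library 1) were present, as were all 4 B cell and all 3 T cell markers. Haemoglobin genes held 30.3% of the summed TPM in library 2 and 19.4% in library 1, and 13 pancreatic acinar genes held 8.11% in library 2 and 10.1% in library 1. In bulk RNA of this kind, fewer cells of a type and less RNA per cell cannot be told apart.

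The set was expressed almost in full. At 1 TPM or more in both libraries, 78 of the 85 genes were detected (91.8%), beside 53.9% of all 21474 protein-coding genes. The median gene of the set stood at 57.7 TPM in library 2 and 58.9 in library 1 (58.3 ± 0.87, SD, n = 2), whereas the median detected protein-coding gene stood at 10.6 TPM in library 2 and 11.7 in library 1. Of the 85 genes, 32 lay among the highest 10% of detected protein-coding genes, which began at a mean of 78.9 TPM. Together the set held 0.92% of the summed TPM in library 2 and 1.24% in library 1 (1.08% ± 0.228, SD, n = 2). As a share of gene counts it held 0.548% in library 2 (95% Wilson interval 0.546% to 0.550%) and 0.628% in library 1 (0.626% to 0.630%), and these intervals cover counting error only. A small number of genes made up most of that total, since the 10 highest made up 51.6% of it in library 2 and 57.1% in library 1 by TPM.

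**Figure D1:**
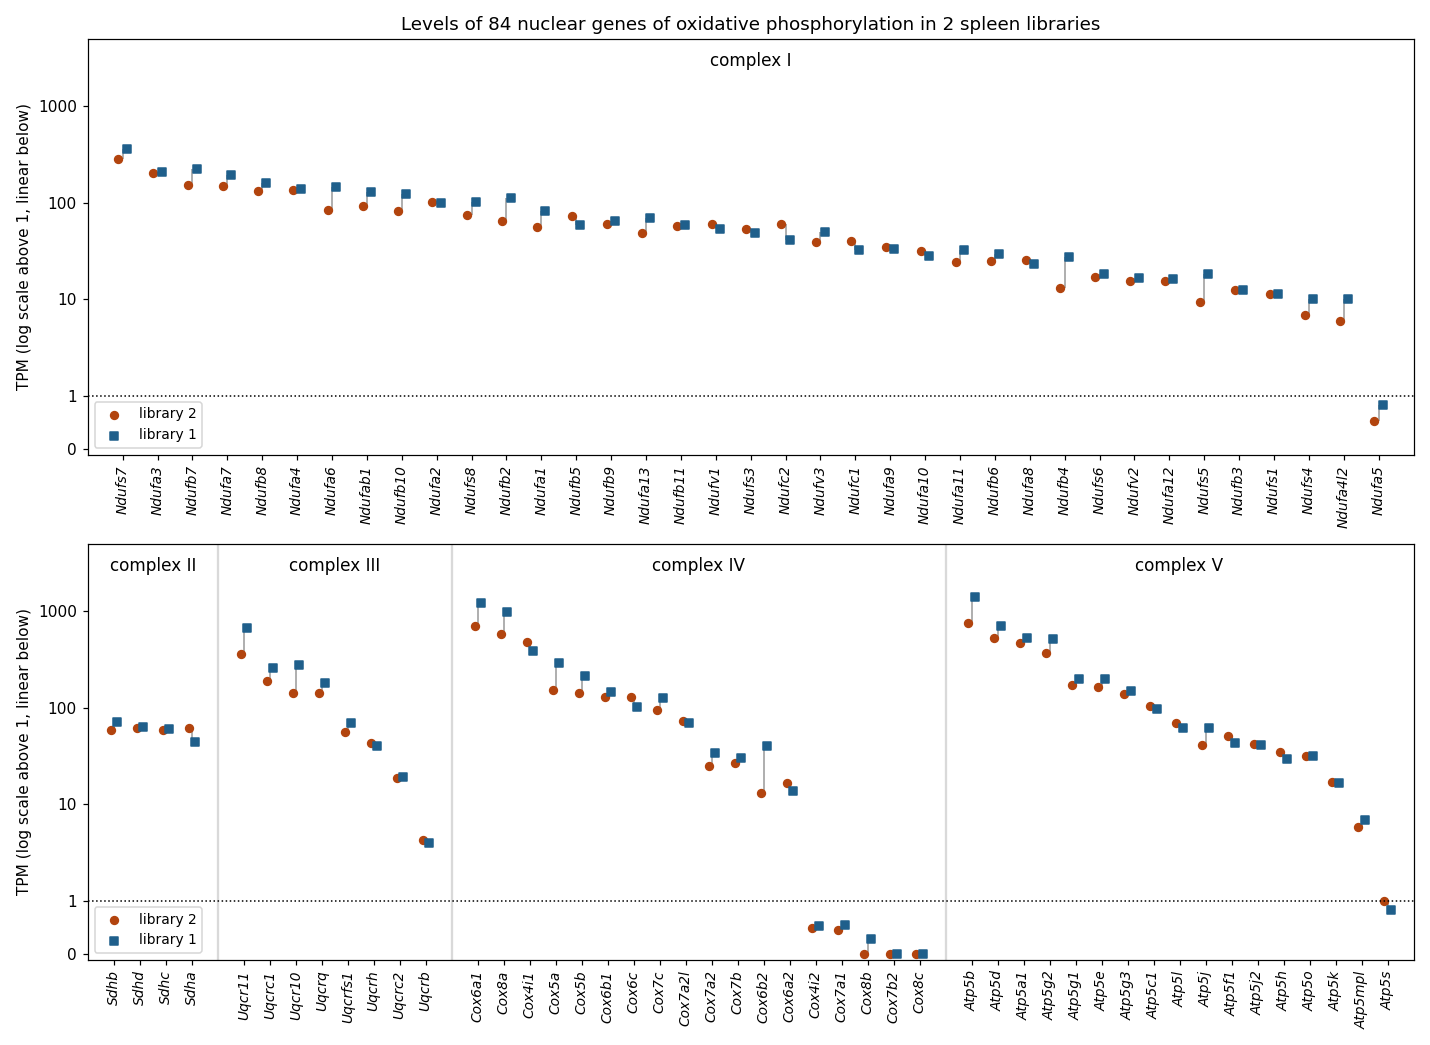
Level of 84 of the 85 genes in TPM (vertical axis, logarithmic above 1 and linear below), by complex and in falling order of mean level, with circles for library 2, squares for library 1 and a line joining them. Detected genes ran between 4.32 and 763 TPM in library 2 and between 3.99 and 1416 TPM in library 1, and the 7 genes under the dotted line at 1 TPM are the ones not detected in both libraries.

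Complex I takes electrons from NADH through a chain of iron-sulphur clusters. Its 38 genes had a median of 53.3 TPM in library 2 and 49.5 in library 1. For the 7 nuclear core subunits, which are conserved down to bacteria, the median was 53.4 TPM in library 2 and 48.9 in library 1. The 31 other genes, with Ndufa4 and Ndufa4l2 among them by symbol, had 48.4 TPM in library 2 and 50.1 in library 1. The core subunits therefore did not stand above these other genes by more than a few TPM in either library.

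Within the core the spread was wide. Ndufs7, which carries the last iron-sulphur cluster before ubiquinone, was the highest gene of the complex at 283 TPM in library 2 and 362 in library 1. Ndufs8, another iron-sulphur subunit, stood at 74.8 TPM in library 2 and 103 in library 1. Ndufv1, which binds NADH and the flavin, had 60.3 TPM in library 2 and 53.7 in library 1. These 3 lay above the median of the complex in both libraries. Ndufs3, a core subunit of the matrix arm, had 53.4 TPM in library 2 and 48.9 in library 1. Lower still were Ndufv2, an iron-sulphur partner of Ndufv1, at 15.4 TPM in library 2 and 16.5 in library 1, and Ndufs1, the largest iron-sulphur subunit, at 11.2 TPM in both libraries. Ndufs7 was thus more than an order of magnitude above Ndufs1 in both libraries, although the subunits are present in equal numbers in the complex.

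One complex I gene, Ndufa5, which encodes an accessory subunit of the matrix arm, was below detection at 0.53 TPM in library 2 and 0.82 in library 1, on 17 expected counts in library 2 and 24 in library 1. The lowest detected one by the mean was Ndufa4l2, a sister of Ndufa4 known to be induced by low oxygen, at 6.01 TPM in library 2 and 10.1 in library 1, where Ndufs4, an accessory subunit of the matrix arm, was slightly lower at 9.97 TPM. Ndufa4 itself had 136 TPM in library 2 and 139 in library 1. Its product has been reassigned to complex IV, and moving the pair there left the medians of both complexes as they were to 3 digits.

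Complex II oxidises succinate and is also an enzyme of the citric acid cycle. It is the one complex with no subunit from the mitochondrial genome, and its 4 genes lay closest together. Sdhb, the iron-sulphur subunit, had 59.4 TPM in library 2 and 71.4 in library 1. The membrane anchors Sdhd, at 61.7 TPM in library 2 and 63.0 in library 1, and Sdhc, at 58.9 TPM in library 2 and 60.9 in library 1, were within a few TPM of it in library 2. Sdha, the flavoprotein, had 62.1 TPM in library 2 and 44.7 in library 1. The value of Sdha was the least certain of them, since its deposited posterior mean was 66.4 TPM in library 2 and 62.9 in library 1, and the deposited interval in library 1 ran between 43.6 and 97.6 TPM. With the posterior means, Sdha lay within the range of its partners in library 1 and not below it.

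Complex III had the highest median, at 99.3 TPM in library 2 and 126 in library 1. Uqcr11, one of the small subunits, was highest at 359 TPM in library 2 and 678 in library 1. Uqcrc1, a core protein of the matrix side, had 192 TPM in library 2 and 257 in library 1. Its partner Uqcrc2 had 18.9 TPM in library 2 and 19.1 in library 1, so the 2 core proteins, which occur in equal number, differed at least 10-fold in RNA level in both libraries. Uqcrfs1, the Rieske iron-sulphur protein, had 55.6 TPM in library 2 and 69.5 in library 1. Uqcrh, the hinge protein that docks cytochrome c1, had 43.8 TPM in library 2 and 40.0 in library 1. The lowest was Uqcrb, a subunit near the ubiquinone site, with 4.32 TPM in library 2 and 3.99 in library 1.

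In complex IV, cytochrome c oxidase, the median of the 18 genes was 49.7 TPM in library 2 and 55.01 in library 1, with 5 genes below detection. The highest was Cox6a1, at 699 TPM in library 2 and 1218 in library 1, and Cox8a followed at 580 TPM in library 2 and 988 in library 1. Cox4i1, the largest nuclear subunit, had 482 TPM in library 2 and 393 in library 1. Among these 3, Cox4i1 alone was higher in library 2. Cox5a had 154 TPM in library 2 and 293 in library 1, and Cox5b, which binds zinc, had 144 TPM in library 2 and 216 in library 1.

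For complex V the median of 17 genes was 69.8 TPM in library 2 and 61.5 in library 1. Atp5b, the catalytic beta subunit, was the highest gene of the whole set at 763 TPM in library 2 and 1416 in library 1. Its partner in the catalytic head, the alpha subunit Atp5a1, had 474 TPM in library 2 and 529 in library 1. For the central stalk, the delta subunit Atp5d had 531 TPM in library 2 and 702 in library 1, the epsilon subunit Atp5e had 165 TPM in library 2 and 199 in library 1, and the gamma subunit Atp5c1 had 104 TPM in library 2 and 96.4 in library 1. Atp5o, which ties the head to the peripheral stalk, had 31.6 TPM in library 2 and 31.4 in library 1. The lowest detected gene was Atp5mpl, a small proteolipid of the membrane part, at 5.88 TPM in library 2 and 6.83 in library 1. Atp5s, a factor coupled to the synthase, was just under detection at 0.99 TPM in library 2 and 0.82 in library 1.

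The isozyme sets were led by the forms known from most tissues. Cox4i1 held 99.9% of the TPM of its set in both libraries, while Cox4i2, known from lung, had 0.50 TPM in library 2 and 0.53 in library 1. Cox6a1 held 97.7% in library 2 and 98.9% in library 1. Its sister Cox6a2, the heart and skeletal muscle form, was nonetheless detected at 16.6 TPM in library 2 and 13.8 in library 1. Of 8 muscle markers 2 were detected, Tnni3 (4.86 TPM in library 2 and 4.9 in library 1) and Tnnt3 (1.48 TPM in library 2 and 1.64 in library 1). The list summed to 9.16 TPM in library 2 and 7.52 in library 1, with Myl1 at 0 counts in both libraries. Of 6 tested, 4 were higher in library 2 beyond counting error, where 24.1% of all genes were, and 0 were lower. The part of muscle RNA in the level of Cox6a2 was not tested. Exons of Cox6a2 overlap those of the integrin gene Itgad on the opposite strand, which stood at 55.4 TPM in library 2 and 46.2 in library 1.

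Other muscle forms were close to absent. Cox7a1 had 0.45 TPM in library 2 and 0.55 in library 1, on 4 counts in each. Cox8b had 0 counts in library 2 and 2 counts in library 1, and a count of 0 in library 2 allows up to 3 counts, which is 0.350 TPM. Cox7b2 and Cox8c, known from testis, had 0 counts in both libraries. For Cox7b2 this allows up to 0.167 TPM in library 2 and 0.191 in library 1, and for Cox8c up to 0.207 TPM in library 2 and 0.239 in library 1. Cox7b accordingly held 100% of its set in both libraries, and Cox8a held 100% in library 2 and 99.97% in library 1.

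Cox6b2, the testis form of its set, was an exception. It had 13 TPM in library 2 and 40.3 in library 1, beside Cox6b1 at 131 TPM in library 2 and 145 in library 1. Cox6b1 thus held 91.0% of the set in library 2 and 78.2% in library 1. None of 4 testis markers was detected, with Tnp1 and Odf1 at 0 counts in both libraries, and the list summed to 0.51 TPM in library 2 and 0.13 in library 1. The coding sequences of Cox6b1 and Cox6b2 matched at 60.5% of 248 aligned bases.

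In the Cox7a set the leading gene was Cox7a2l, which encodes a supercomplex factor related to Cox7a2. It had 72.8 TPM in library 2 and 69.7 in library 1, against 24.7 TPM in library 2 and 34.4 in library 1 for Cox7a2, the common complex IV subunit. Cox7a2l held 74.3% of the set in library 2 and 66.6% in library 1. In the Ndufa4 pair, Ndufa4 held 95.8% in library 2 and 93.2% in library 1.

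**Figure D2:**
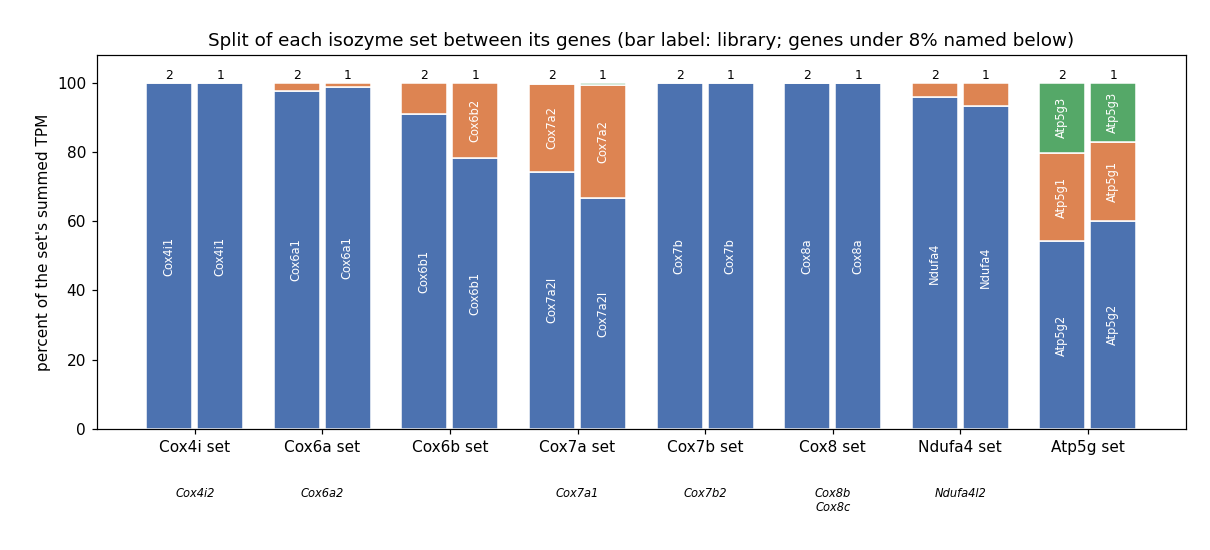
Percent of the summed TPM of each isozyme set held by each of its genes, with the bar of library 2 left of that of library 1 and genes of at most 8% named under the set. Cox4i, Cox6a, Cox7b, Cox8 and Ndufa4 are each held at over 90% by a single gene in both libraries, Cox6b at 91.0% in library 2 and 78.2% in library 1, and Cox7a and Atp5g are split.

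The Atp5g genes differ from the other sets in that all 3 encode the same mature c subunit, which forms the rotating ring of the synthase. Atp5g2 had 372 TPM in library 2 and 523 in library 1 and held 54.3% of the set in library 2 and 60.1% in library 1. Atp5g1 had 175 TPM in library 2 and 198 in library 1, and Atp5g3 had 140 TPM in library 2 and 149 in library 1. The order of the 3 genes was the same in both libraries. Over the last 75 codons, 57 of 225 bases differed between the 3 genes (25.3%), 52 of them at the last base of a codon, and none of the 57 changes the encoded amino acid. Their last 60 coding bases are shown because they let reads of these genes be told apart although the protein is the same, with capitals at each base that is not shared by all 3:
Atp5g2: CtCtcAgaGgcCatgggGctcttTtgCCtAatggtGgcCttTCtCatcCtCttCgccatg
Atp5g1: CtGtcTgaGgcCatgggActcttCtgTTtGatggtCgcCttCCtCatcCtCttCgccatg
Atp5g3: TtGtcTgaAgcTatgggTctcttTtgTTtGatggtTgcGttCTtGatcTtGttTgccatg

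Gene levels and protein-coding levels were not the same thing for several members. Transcripts annotated as protein-coding made up 84.3% of the set in library 2 and 82.6% in library 1 by TPM, and over 90% of the gene's TPM in 65 of 82 genes in library 2 and in 64 of 83 genes in library 1. For 4 genes they held under 50% in both libraries. These were Atp5b, Atp5a1, Ndufb10, an accessory subunit of the membrane arm, and Ndufab1, the mitochondrial acyl carrier protein.

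In Atp5b the protein-coding share was 16.3% in library 2 and 10.5% in library 1. The leading transcript was Atp5b-207, a processed transcript of 343 bases with no annotated coding sequence, at 314 TPM in library 2 and 903 in library 1. Atp5b-205, with a retained intron, had 303 TPM in library 2 and 344 in library 1, and the protein-coding Atp5b-201 had 124 TPM in library 2 and 149 in library 1. By protein-coding transcripts Atp5b thus stood beside Atp5a1, at 114 TPM in library 2 and 120 in library 1, and no longer led the set.

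Atp5b-207 shares 331 of its 343 bases (96.5%) with protein-coding transcripts. It consists of the start of the gene (exon 1 at chr10:128083306-128083453 and exon 2 at chr10:128083892-128084086 of GRCm38, plus strand) and differs from Atp5b-201 by 12 bases, which run on into the intron after exon 2. The end of Atp5b-207 (chr10:128084027-128084086) is shown with the same stretch of Atp5b-201, because these 12 bases, given in capitals, are the ones that set it apart from the protein-coding transcripts. In Atp5b-201 the capitals are the first bases of exon 3:
Atp5b-207: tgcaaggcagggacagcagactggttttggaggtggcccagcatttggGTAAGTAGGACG
Atp5b-201: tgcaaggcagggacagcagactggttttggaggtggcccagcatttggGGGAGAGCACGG

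The same pattern held in the other 3 genes. In Ndufb10 the retained-intron transcript Ndufb10-202 had 59.6 TPM in library 2 and 104 in library 1, against 19.2 TPM in library 2 and 14.5 in library 1 for the protein-coding Ndufb10-201. In Ndufab1 the retained-intron transcript Ndufab1-208, of 443 bases, held 80.1% of the gene in library 2 and 69.6% in library 1. In Atp5a1 the retained-intron transcript Atp5a1-203 held 70.6% in library 2 and 69.0% in library 1. These transcripts share between 67.0% (Ndufab1-208) and 82.9% (Atp5a1-203) of their bases with protein-coding transcripts of the gene. Atp5b-207 is much shorter than the mRNA, and a given number of reads adds more TPM to a shorter transcript: Atp5b-207 took its 314 TPM in library 2 on 2417 expected counts, while Atp5b-201 took its 124 TPM on 11264.

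Ndufs1 and the accessory subunit Ndufa10 had protein-coding shares under 50% in library 2 only, at 45.1% in library 2 and 63.6% in library 1 for Ndufs1 and 32.3% in library 2 and 56.0% in library 1 for Ndufa10. Averaged over the libraries, the leading transcript held under 50% of the gene in 4 members, and by 1 library it did so in 6 members in library 2 and in 2 in library 1. The 4 members were Ndufs1 and Ndufa10, Atp5j2, a membrane subunit that splits between coding transcripts, and Cox6b2, whose leading transcript Cox6b2-206 held 30.02% in library 2 and 61.1% in library 1.

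**Figure D3:**
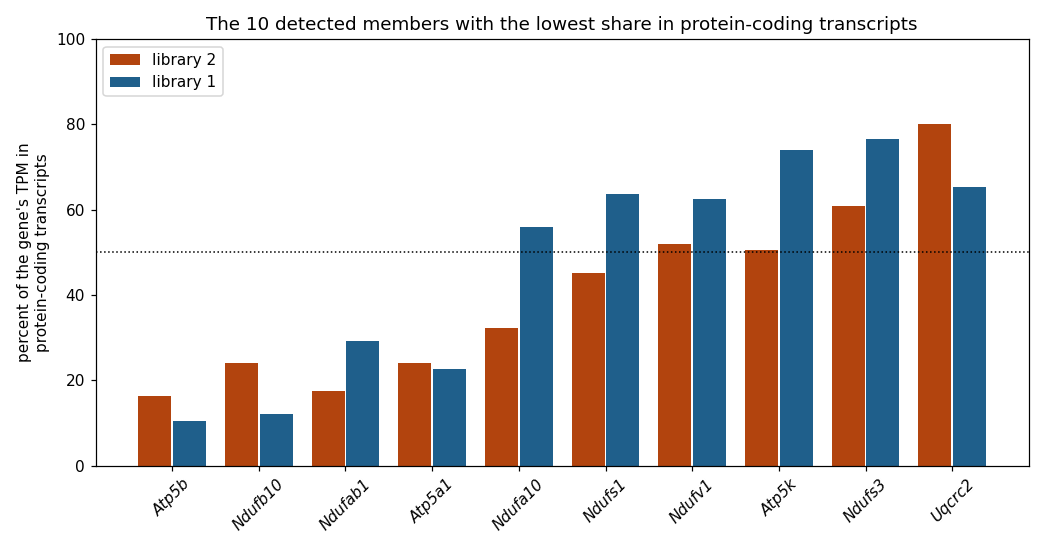
Percent of the gene's TPM in transcripts annotated as protein-coding (vertical axis, dotted line at 50%) for the 10 detected members with the lowest share, with library 2 left of library 1. Atp5b, Ndufb10, Ndufab1 and Atp5a1 lie under 50% in both libraries, and Ndufa10 and Ndufs1 in library 2 only.

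Many members have near copies elsewhere in the genome, mostly annotated as pseudogenes, a label for copies held not to make the protein. Whether these copies make protein was not tested. In a search of all annotated transcripts, the coding sequence of 36 members matched 1 or more genes at another place at 90% identity or more over 150 bases or more, and of 84 such copies 81 were annotated as pseudogenes. Another 2 matches, for Ndufb9 and Atp5o, overlap the member's own exons and were left out of these counts. The most were found for Atp5l, a membrane subunit, with 14. The deposited posterior SD of the count, which measures how far shared reads leave a count undecided, was nevertheless 0 reads in both libraries for 70 members. It was above 1% of the count for 3 members, Atp5h, Ndufb4 and Ndufa12.

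For 2 members the copies were listed above the gene itself by TPM in both libraries. Ndufb4, an accessory subunit of the membrane arm on chromosome 16, had 13.1 TPM in library 2 and 27.3 in library 1, while the processed pseudogene Ndufb4c on chromosome 15 had 140 TPM in library 2 and 176 in library 1. The 387 coding bases of Ndufb4 are all found unchanged in Ndufb4c. Of the expected counts of both genes, Ndufb4c was given 73.3% in library 2 and 60.4% in library 1. Ndufa12, an accessory subunit of the matrix arm on chromosome 10, had 15.5 TPM in library 2 and 16.0 in library 1, while its copy Gm15920 on chromosome 5 had 21.2 TPM in library 2 and 37.2 in library 1. By expected counts Gm15920 was given 41.0% of both genes' total in library 2 and 54.3% in library 1, so that it was above Ndufa12 in library 1 only.

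Ndufa12 and Gm15920 differ at 2 of 399 aligned coding bases, A147G and T426C, counted from the first base of the start codon with the base of Ndufa12 given first. Coding bases 117 to 176 are shown because they hold the first of these differences, in capitals, and reads within the aligned coding bases that miss both positions match both genes. The first 60 coding bases of Ndufb4 are the same letters as in Ndufb4c and are shown once:
Ndufa12: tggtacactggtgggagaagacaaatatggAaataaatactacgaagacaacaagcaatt
Gm15920: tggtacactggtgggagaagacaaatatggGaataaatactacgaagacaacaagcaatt
Ndufb4 and Ndufb4c: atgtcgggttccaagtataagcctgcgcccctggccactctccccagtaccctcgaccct

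Copies of other members were also given reads. Gm6969, a copy of Cox7a2l identical over 201 bases, had 28.1 TPM in library 2 and 0.41 in library 1. Gm12338, a copy of Cox7c, the small complex IV subunit at 94.3 TPM in library 2 and 128 in library 1, had 117 TPM in library 2 and 0 in library 1, on 17.2 expected counts in library 2 and 6.58 in library 1. The level of Gm12338 thus rests on few reads, and why it is listed at 0 TPM in library 1 was not tested.

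**Figure D4:**
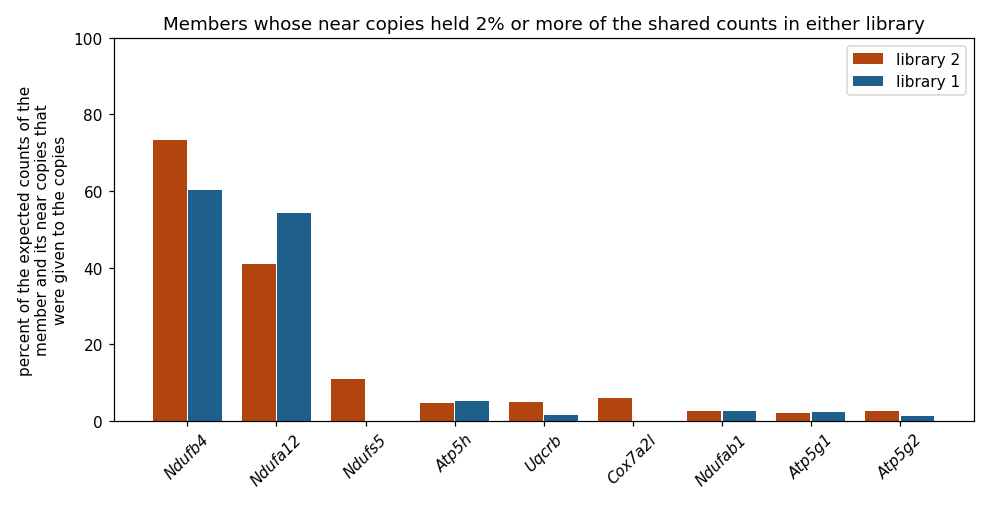
Percent of the expected counts of a member and its near copies together that was given to the copies (vertical axis), for the 9 members where this reached 2% in either library, with library 2 left of library 1. For Ndufb4 and Ndufa12 the copies were given more than 40% of the counts in both libraries, and the other 7 at most 11%.

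The members share features that the rule did not use. Their median transcript length was 731 bases, beside 2282 bases for detected protein-coding genes, and 30 of the 85 were under 600 bases. GC content did not set them apart, with a median of 52.6%, beside 52.0% for detected protein-coding genes. Exons of 27 members (31.8%) overlapped an exon of another gene on the opposite strand, beside 31.3% of detected protein-coding genes. The sources used here name no strand setting for the authors' counting, so values of such pairs are uncertain.

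Nuclear respiratory genes are known for sites of the factors NRF1, GABPA, an ETS factor, and YY1 near their start. In RefSeq promoter windows of 300 bases (250 before to 50 after the start, build GRCm38.p6), 69 of the 85 members were matched. Searched on both strands, the NRF1 core GCGCANGC was found in 34.8% of the 69, beside 11.2% of 27025 genes with a window. The ETS core CCGGAAG was found in 23.2%, beside 9.9% of all, and the YY1 core AAGATGGC in 14.5%, beside 3.2% of all. The SP core GGGCGG was found in 42.0%, beside 38.2% of all, the ERR element TCAAGGTCA in 2.9%, beside 0.5%, and the TATA box TATAAA in 10.1%, beside 15.7%. None of the 6 motifs contains another, although matches of different motifs may overlap by some bases. The genes with a window include genes not detected here, and the shares among detected genes alone were not computed. The windows of the members were richer in CpG, with a median of 19 per window, beside 7 for all genes with a window. The part of CpG content in the motif shares was not tested, and a match is a description of letters, not of binding.

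The bases from 100 before to 30 after the start are shown for the gene of each complex with the highest mean level, to let a reader compare the promoters of genes with high RNA levels, with every match to one of the 6 motifs in capitals. Read along each gene's own strand they lie at chr10:80249349-80249478 (Ndufs7, plus strand), chr4:140961171-140961300 (Sdhb, plus strand), chr10:80406792-80406921 (Uqcr11, minus strand), chr5:115348929-115349058 (Cox6a1, minus strand) and chr10:128083207-128083336 (Atp5b, plus strand):
Ndufs7: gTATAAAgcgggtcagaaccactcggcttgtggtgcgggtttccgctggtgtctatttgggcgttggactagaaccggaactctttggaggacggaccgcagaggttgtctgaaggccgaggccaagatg
Sdhb: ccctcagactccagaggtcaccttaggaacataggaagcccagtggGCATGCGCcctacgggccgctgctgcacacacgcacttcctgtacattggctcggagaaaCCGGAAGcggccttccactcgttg
Uqcr11: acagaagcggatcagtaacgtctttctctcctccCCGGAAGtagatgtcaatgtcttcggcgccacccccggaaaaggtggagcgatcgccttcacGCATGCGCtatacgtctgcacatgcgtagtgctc
Cox6a1: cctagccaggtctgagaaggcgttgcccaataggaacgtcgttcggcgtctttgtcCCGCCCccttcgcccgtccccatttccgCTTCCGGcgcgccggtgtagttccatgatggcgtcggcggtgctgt
Atp5b: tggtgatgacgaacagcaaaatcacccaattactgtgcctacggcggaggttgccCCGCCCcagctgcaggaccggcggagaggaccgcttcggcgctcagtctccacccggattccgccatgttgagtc
The ETS core lies in Sdhb, in Uqcr11 and, on the other strand, in Cox6a1, which also holds the SP core, and the NRF1 core lies on the other strand in Sdhb and Uqcr11. Within the printed bases Ndufs7 holds only the TATA letters, 99 bases before the start, and Atp5b only the SP core. In the full windows Ndufs7 also holds the YY1 core, whose letters run past the printed end, Cox6a1 the NRF1 core and Sdhb the SP core.

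The 2 libraries were then compared gene by gene, as the ratio of expected counts in library 2 over library 1 after TMM scaling, which sets the library sizes by a trimmed mean of ratios. This asks how far 2 samples of the same tissue differ and not about a condition, and with 1 library on each side no ratio has a replicate check. Of the 85 members 81 had 10 or more counts in total. Their median log2 ratio was 0.008, beside 0.005 for all 17547 genes tested, and the median size of the log2 ratio was 0.28, beside 0.25. By the log2(TPM + 1) difference the median was -0.16, beside -0.08 for all genes. Among members with 1000 or more counts the median log2 count ratio was -0.09, beside -0.04 for all such genes. The summed counts of all 85 members made up a smaller share in library 2 (0.548%, against 0.628% in library 1), with counting intervals that do not overlap. This share is of all gene counts, so it also depends on the counts of other genes, haemoglobin genes among them. Their part in the difference was not tested.

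By an exact binomial test of counts with Benjamini-Hochberg adjustment over all genes, 27 members were higher in library 2 beyond counting error, where 24.1% of all genes were, and 35 were lower, where 26.6% of all genes were. In all, 76.5% of the 81 members and 50.7% of all genes passed. Among genes with 1000 or more counts, 83.6% of 67 members and 69.1% of 8811 genes passed. Past 1.5-fold, 2 members were higher in library 2, where 10.5% of all genes were, and 11 were lower, where 8.04% of all genes were. Among genes with 1000 or more counts, 1 of 67 members was higher past 1.5-fold, where 2.25% of all such genes were, and 8 were lower, where 4.04% were.

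The 2 higher genes encode accessory subunits of the membrane arm of complex I. Ndufc2 had 1542 counts in library 2 and 940 in library 1 (log2 ratio 0.69, 95% counting interval 0.58 to 0.81, adjusted p = 4.93e-31 by the exact binomial test). Ndufc1 had 262 counts in library 2 and 167 in library 1 (log2 ratio 0.62, counting interval 0.35 to 0.92). Ndufc1 is among the shortest members, and its TPM was 40.4 in library 2 and 32.0 in library 1.

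The 11 lower genes came from complexes I, III and IV. The strongest was Cox6b2, with 193 counts in library 2 and 486 in library 1 (log2 ratio -1.34, counting interval -1.60 to -1.11, adjusted p = 7.33e-30 by the exact binomial test). Cox5a, with 3992 counts in library 2 and 6719 in library 1, had a log2 ratio of -0.77, and Cox5b had -0.44. In complex III the small subunits Uqcr10, which lies near cytochrome c1 and had 1836 counts in library 2 and 3004 in library 1, and Uqcr11, with 4710 counts in library 2 and 7623 in library 1, had log2 ratios of -0.73 and -0.71. These 2 genes were alike in sign and size. Cox6a1, at 13811 counts in library 2 and 21020 in library 1, and Cox8a, at 10632 counts in library 2 and 15789 in library 1, had -0.62 and -0.59. They are the 2 highest complex IV genes.

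In complex I by symbol the lower genes were the accessory subunits Ndufb4, Ndufs5, Ndufa6 and Ndufab1, and Ndufa4l2, the sister of Ndufa4. With Ndufa4 and Ndufa4l2 placed in complex IV, 4 lower genes were in complex I and 5 in complex IV. Ndufa6, which belongs to the LYR protein family, had 1603 counts in library 2 and 2457 in library 1 (log2 ratio -0.63). Ndufab1, the acyl carrier protein that binds it, had 2225 counts in library 2 and 3322 in library 1 (log2 ratio -0.60). Ndufs5, on 157 counts in library 2 and 271 in library 1, had a log2 ratio of -0.80. Its copy BC002163 was given 19.3 counts in library 2 and 0 in library 1, and with these added the ratio was -0.635. Ndufa4l2, on 242 counts in library 2 and 364 in library 1, had a log2 ratio of -0.60. Ndufb4 had -0.95 on its own counts, which were 518 in library 2 and 987 in library 1. With the counts of Ndufb4c added, its log2 ratio was -0.38 and no longer past the limit, and with those of Gm15920 added Ndufa12 had -0.18, where its own counts gave 0.19.

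Of the subunits of the catalytic head, Atp5a1 had 24593 counts in library 2 and 24141 in library 1, a log2 ratio of 0.01 that did not pass the test (adjusted p = 0.640 by the exact binomial test). Atp5b had 29152 counts in library 2 and 33582 in library 1, a log2 ratio of -0.22, although its TPM was 763 in library 2 and 1416 in library 1. Its effective length, by which counts are corrected for TPM, was 724 bases in library 2 and 492 in library 1. The short Atp5b-207 held 41.2% of the gene's TPM in library 2 and 63.8% in library 1. Higher in library 2 beyond counting error, within 1.5-fold, were Sdha (log2 ratio 0.47) and Cox4i1 (0.45), while Uqcrc1 (-0.29) was lower. Members higher and members lower beyond counting error occurred in all 5 complexes.

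The sign of the difference ran with base composition. Across the 81 members, which are not independent replicates, the log2 ratio fell with the GC content of the transcripts (Spearman's rho -0.42, Pearson's r -0.38, n = 81), and rho was -0.32 over all 17473 tested genes with a value. In the 41 members of higher GC content (52.6% to 61.4%) the median log2 ratio was -0.20, with 8 higher and 26 lower beyond counting error. In the 40 members of lower GC content (39.0% to 52.5%) it was 0.15, with 19 higher and 9 lower. Of all genes at any GC content, 24.1% were higher and 26.6% lower. The shares of all genes within these GC ranges were not computed. After the trend with length and GC over all genes was removed, 2 members (2.469%) were higher past 1.5-fold, where 9.684% of all genes were. These were Ndufc2 and Cox4i1. The 6 lower members (7.407%, beside 7.497% of all genes) were Cox6b2, Ndufb4, Cox5a, Ndufs5, Uqcr10 and Ndufa6. Beside the members' differences, all 7 erythroid markers and all 4 markers of red pulp macrophages were higher in library 2 beyond counting error, where 24.1% of all genes were. Among them Alas2 had 1048 TPM in library 2 and 509 in library 1. Of other lists, 3 of 4 B cell (1 lower), 2 of 3 T cell (0 lower) and 10 of 13 pancreatic acinar markers (3 lower) were also higher. So were 3 of 4 white fat, 3 of 4 tested kidney tubule and 1 of 2 tested brown fat markers, with 0 lower. Of the kidney tubule and brown fat markers, 0 were detected in both libraries. The 2 spleen factors Tlx1 and Nkx2-5 were lower, and of 7 pericyte and smooth muscle markers 1 was higher and 2 were lower. The part of GC content or of these cells in the members' differences was not tested.

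**Figure D5:**
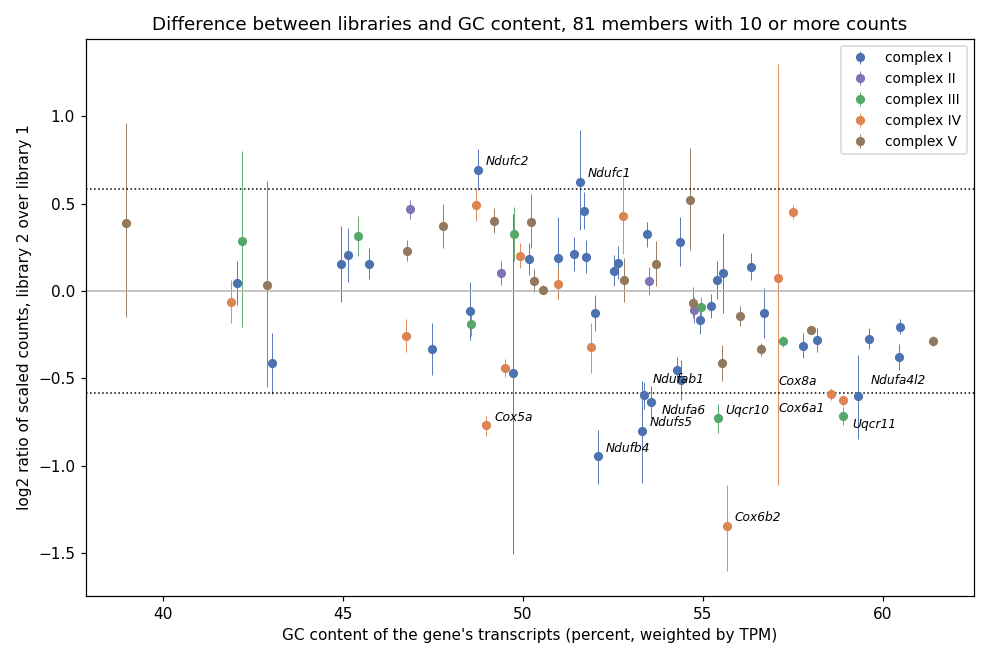
Log2 ratio of TMM-scaled counts, library 2 over library 1 (vertical axis, with 95% counting intervals and dotted lines at 1.5-fold), against the GC content of the gene's transcripts in percent, for the 81 members with 10 or more counts, coloured by complex. Ndufc1 and Ndufc2 lie above the upper line and 11 members lie below the lower one, 9 of them with a GC content at or above the members' median of 52.6%.

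Other genes of the pathway were read from listed sets. Of the 13 mRNAs of the mitochondrial genome 12 were detected in both libraries, and the 13 held 0.660% of the summed TPM in library 2 and 0.623% in library 1, less than the nuclear genes in both. Their median was 215 TPM in library 2 and 204 in library 1. Of the 13, 11 were higher in library 2 beyond counting error, where 24.1% of all genes were, and 1, mt-Nd4l, was lower, where 26.6% were, with a median log2 ratio of 0.44. The highest, mt-Co1, the catalytic subunit of complex IV, had 2619 TPM in library 2 and 2472 in library 1. In mt-Atp8, a short subunit gene of complex V, counts and TPM ran opposite ways, with 160 counts in library 2 and 83 in library 1 but 335 TPM in library 2 and 687 in library 1. Poly(A) selection and such short mRNAs limit what these values say of the mitochondrial genome.

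The electron carriers around complex III were uneven. Cyc1, cytochrome c1 of complex III, had 105 TPM in library 2 and 127 in library 1. Cycs, the cytochrome c of body cells, was listed at 0.74 TPM in library 2 and 0.88 in library 1, on 115 expected counts in library 2 and 105 in library 1. Near copies were searched for the members only, so whether reads of Cycs were given to copies was not tested. Cyct, the testis form, had 0 counts in both libraries.

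Assembly factors, which build the complexes without being part of them, stood lower than the subunits. Of 47 measured, 42 were detected, with a median of 7.2 TPM in library 2 and 8.85 in library 1. Coa3, an early factor for complex IV, and Cox14, its partner, led with 129 TPM in library 2 and 130 in library 1 for Coa3 and 97.7 TPM in library 2 and 151 in library 1 for Cox14. Beyond counting error, 3 of the 47 were higher and 16 lower in library 2, where 24.1% and 26.6% of all genes were. Cox18, which inserts a complex IV subunit into the membrane, had the largest difference among them, at 13.9 TPM in library 2 and 30.4 in library 1 (log2 ratio -1.13).

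All 14 citric acid cycle genes were detected, with a median of 42.1 TPM in library 2 and 46.0 in library 1, and 7 were higher and 3 lower in library 2 beyond counting error, where 24.1% and 26.6% of all genes were. Mdh2, the mitochondrial malate dehydrogenase, was the only one past 1.5-fold, at 156 TPM in library 2 and 285 in library 1 (log2 ratio -0.75). Of 12 regulators of mitochondrial genes 10 were detected, and 2 were higher and 3 lower beyond counting error, which is near or below those shares of all genes. The coactivator Ppargc1a was below detection at 0.17 TPM in library 2 and 0.59 in library 1, its relative Pprc1 had 26.02 TPM in library 2 and 28.1 in library 1, and Nrf1 had 29.8 TPM in library 2 and 26.3 in library 1. Yy1 had 19.6 TPM in library 2 and 34.2 in library 1 (log2 ratio -0.68) and was the only regulator past 1.5-fold.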

How the data were processed

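The deposited gene and transcript tables hold 1 library each, on the mm10 assembly with GENCODE annotation M4, per the notes deposited beside them. The sources used here name no aligner, quantification tool or strand setting. Expected counts, as deposited, are estimated reads per gene, not normalized. The deposited TPM and FPKM values are scaled by the authors for length and library, and the transcript tables add each transcript's percent of the TPM of its gene. Lists of contigs and junctions on mm9 were not used.

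Symbols, transcript types and sequences were taken from GENCODE M21 by unversioned identifier, which matched 98.0% of gene identifiers. Spike-ins (97) and 26248 further entries, which held 0 counts in both libraries, were left out of library sizes. Library sizes were scaled with TMM in edgeR 4.0.16 (R 4.3.3), with DESeq2 1.42.0 size factors as an alternative. Log2 ratios use a prior count of 2. The exact two-sided binomial test used rounded expected counts of genes with 10 or more in total. Benjamini-Hochberg adjustment ran over all of them, with a threshold of 0.05. The test was also run on counts simulated with counting error alone, which it assumes, so that run does not bear on the spread of real libraries. The test compares these libraries and holds no estimate of the spread between animals. A difference was read as large past 1.5-fold, and a gene as detected at 1 TPM. Intervals and floors (3 counts for a count of 0) cover counting error only. GC content is the mean over a gene's transcripts, weighted by TPM. Near copies were found with BLAST of coding sequences, on the sense strand. Promoter sequences are RefSeq's. Remaining steps used scipy 1.17.1, numpy 2.4.6 and pandas 2.3.3 under Python 3.11.15.

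Genes named are the highest and lowest of each complex, isozymes, core subunits, those past 1.5-fold, those under 1 TPM, those led by a transcript under 50%, and the listed sets. Other members named for their role, the near copies and the noncoding transcripts were chosen after their values were seen. The members and lists were chosen with earlier results of these data known. Alternatives were scaling, count filters, the prior count, detection limits, length and GC trends, posterior means, full length in place of effective length, coding transcripts only, and each library alone. The values of 1 core subunit are not reported here.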

Additional observations from a re-analysis of the deposited data

How the results depend on the processing

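Settings that raise the TPM of all other genes raised the levels: without haemoglobin and pancreatic acinar genes in the denominator the set held 1.66% of TPM and its median was 90.2 TPM. With protein-coding transcripts only (chosen after the data were seen) the median was 48.8 TPM. Leaving out either library in turn gave shares of 0.92% to 1.24% and medians of 57.7 to 58.9 TPM, and 78 genes detected each time. The count of members higher past 1.5-fold, 2, was 1 among genes with 1000 or more counts (chosen after the data were seen), 1 with the length trend removed, and 0 for the log2(TPM + 1) difference. The count of those lower, 11, was 6 with the length and GC trend removed (7.407% of members, beside 7.497% of all genes). It was 10 with the counts of near copies added (chosen after the data were seen). The cause of these changes was not tested, apart from the smaller number of genes in the first. Under TMM without haemoglobin and acinar genes, DESeq2 size factors, total counts, other count filters, another prior count and Fisher's exact test, every count of members stayed within 1.5 times its value. Removing the length and GC trend changed the sign of 9 members and the log2(TPM + 1) difference that of 16. No paired analysis was possible because there is a single group. Arms of 1 library allow no test of the spread between animals.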
